A study of Mus musculus with 9 samples.

Results

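The desmosome genes were examined in RNA-Seq libraries of NMuMG cells, an immortalized line from mouse mammary gland. The set comprised 10 genes picked by symbol out of 52459 gene symbols in the files: *Dsp*, *Jup*, *Pkp1*, *Pkp2*, *Pkp3*, *Pkp4*, *Dsg2*, *Dsc2*, *Dsc3* and *Perp*. All libraries came from pools of transfected cells carrying a pBICEP-based vector and selected with G418, grown without TGF-β. The mock group (3 libraries) carried the empty vector. The EPR group (3 libraries, labelled BC030870) overexpressed the long noncoding RNA BC030870, and the EPRSTOPE group (3 libraries, labelled BC0STOP) overexpressed a point mutant of the same RNA in which the second codon of its small open reading frame is a stop, so that the peptide EPRp is not made. The methods of the study call the 3 libraries of a group biological replicates. They do not say whether these were separate transfected pools or cultures of 1 pool, so p-values measure the spread between the libraries and not necessarily that between transfections.

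Desmosomes are the spot-like junctions that tie the keratin filaments of neighbouring epithelial cells together. Their transmembrane proteins are desmosomal cadherins, the desmogleins and desmocollins, which bind each other across the gap between cells. On the inner side, the armadillo proteins plakoglobin and the plakophilins bind the cadherin tails and hold desmoplakin, which in turn binds the keratin filaments. Mammary epithelium uses these junctions to withstand stretch, and they are taken apart when epithelial cells become mesenchymal.

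The libraries held between 5972457 and 11876435 estimated counts, so 3 counts correspond to 0.253 to 0.502 CPM in a library, where CPM is the count per 1000000 counts of that library. BC030870 RNA, the overexpressed transcript, had a level of 0.054 ± 0.094 CPM (SD, n = 3) in mock cells, of 24.9 ± 1.9 CPM in EPR cells and of 4.24 ± 0.48 CPM in EPRSTOPE cells. The mean of the EPR group was thus 5.87 times that of the EPRSTOPE group, and in EPR against EPRSTOPE the amount of this RNA and the stop codon cannot be told apart. Among the epithelial markers, the keratins *Krt8* and *Krt18* were high in all libraries, but *Epcam* was listed at 0 in the 3 mock libraries, *Cdh1* was at 0.84 ± 0.46 CPM in mock against 556 ± 14 CPM in EPR and 403 ± 23 CPM in EPRSTOPE cells, and *Cldn3*, *Cldn4*, *Cldn7* and *Esrp1* did not exceed a group mean of 0.231 CPM. Of 7 epithelial markers tested (11 listed), 7 were above mock with EPR (6 of 6 without *Epcam*, which passed the filter on low counts through the EPR libraries alone) and 4 with EPRSTOPE, and their summed level ran from 3699 to 4166 CPM in mock, from 9509 to 10616 in EPR and from 10711 to 11048 in EPRSTOPE libraries. Of 6 mesenchymal markers tested (12 listed), EPR cells had 1 higher and 4 lower and EPRSTOPE cells 1 higher and 1 lower, each against mock, where the higher one was *Pdgfra*, at 0 in mock, which would not have passed that filter without the higher group (summed level 4035 to 4201 CPM in mock, 2214 to 2446 with EPR and 3960 to 4299 with EPRSTOPE). Myoepithelial markers had 2 of 6 tested, 2 lower in EPR and 1 lower in EPRSTOPE cells, with *Trp63* at 0 throughout and a summed level of 10.7 to 12.03 CPM in mock, 1.52 to 1.66 with EPR and 2.88 to 3.56 with EPRSTOPE. Of 4 endothelial markers 1 was tested and none of the tools used called it in any comparison, and of 4 immune markers 0 reached the filter. Epithelial, mesenchymal and myoepithelial markers therefore moved with the groups, and their part in the differences of the desmosome genes was not tested. In bulk samples, fewer cells of a kind and less RNA per cell cannot be told apart.

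Promoter sequences were held for only 3 of the 10 genes, and these are shown. Against mock, the gene count of *Dsp* rose, that of *Pkp4* fell and that of *Jup* passed the test in neither direction. The windows are the 250 bases before the RefSeq start on GRCm38.p6, written on the strand of the gene. *Dsp* lies at chr13:38151044-38151293 on the plus strand, *Jup* at chr11:100397791-100398040 on the minus strand, and the windows of the 2 starts of *Pkp4* at chr2:59160684-59160849 and chr2:59161619-59161868 on the plus strand. The first of these was searched over 250 bases, and the 84 bases of it that overlap an exon of another gene are left out below. The *Dsp* window was matched to the transcript of 9592 bases, the *Jup* window only to a processed transcript of 684 bases. The first *Pkp4* window was matched to protein-coding transcripts of 4614 and 4484 bases, with at most 16.2 estimated counts in a library. The second was matched to no transcript, so the windows need not be those of the transcripts that differed between groups. Capitals mark a match to the E-box CACCTG, the motif of the Snail and Zeb repressors, on either strand.
Dsp: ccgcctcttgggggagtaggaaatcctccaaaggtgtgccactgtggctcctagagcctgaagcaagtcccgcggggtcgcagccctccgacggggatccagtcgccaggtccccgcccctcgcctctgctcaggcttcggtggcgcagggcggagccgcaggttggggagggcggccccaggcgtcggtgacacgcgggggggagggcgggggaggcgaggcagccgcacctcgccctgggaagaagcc
Jup: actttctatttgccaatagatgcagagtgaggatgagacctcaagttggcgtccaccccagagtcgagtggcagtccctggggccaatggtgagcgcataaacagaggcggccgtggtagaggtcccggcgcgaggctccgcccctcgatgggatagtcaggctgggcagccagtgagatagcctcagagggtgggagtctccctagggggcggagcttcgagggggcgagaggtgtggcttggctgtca
Pkp4, first start: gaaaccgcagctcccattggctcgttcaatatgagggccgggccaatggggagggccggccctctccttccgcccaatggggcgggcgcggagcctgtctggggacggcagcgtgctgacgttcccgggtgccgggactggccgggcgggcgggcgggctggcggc
Pkp4, second start: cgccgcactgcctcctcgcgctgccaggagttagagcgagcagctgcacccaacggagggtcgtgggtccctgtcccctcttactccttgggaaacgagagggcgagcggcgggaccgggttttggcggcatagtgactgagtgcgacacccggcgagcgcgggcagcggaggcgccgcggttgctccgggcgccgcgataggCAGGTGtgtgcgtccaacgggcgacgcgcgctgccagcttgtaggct
The E-box was found at 1 place, in the window of the second *Pkp4* start, 47 bases before that start, and 17.2% of 32851 RefSeq promoters of this length hold it. AACNNGTT, the motif of the grainyhead-like factors, was searched on both strands, was in 0 of the 4 windows and is in 3.64% of all promoters. The *Dsp* window was 72.4% G and C and the *Jup* window 62.0%, against a median of 52.4% over all promoters. These matches describe letters in a window and say nothing of binding.

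Of the 10 genes, 8 reached 1 CPM in at least 3 libraries and were tested, among 15370 genes. *Dsc2* and *Dsc3* were listed at 0 in all 9 libraries. A gene was called where the quasi-likelihood test of edgeR gave an adjusted p below 0.01 (Benjamini-Hochberg, over all genes tested) and its log2 fold change exceeded 0.5 in size. In EPR against mock cells, 5 of the 8 genes were called, 3 higher (*Dsp*, *Pkp1*, *Perp*) and 2 lower (*Pkp4*, *Dsg2*), where 28.1% of all genes were called, 15.2% higher and 12.9% lower. In EPRSTOPE against mock cells, 4 of 8 were called, 3 higher (the same genes, *Dsp*, *Pkp1* and *Perp*) and 1 lower (*Pkp4*), against 28% of all genes, 15.6% higher and 12.4% lower. In EPR against EPRSTOPE cells, 3 of 8 were called, 1 higher (*Pkp2*) and 2 lower (*Pkp1*, *Dsg2*), against 13.2% of all genes, 6.86% higher and 6.35% lower. The median log2 fold change of the 8 genes was 0.12, 0.17 and 0.01 in these comparisons, and that of all genes tested was -0.01, -0.04 and 0.01. The genes did not move as a block: in each comparison some rose while others fell. EPR and EPRSTOPE cells were compared with the same mock libraries, so both comparisons share the error of those libraries.

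The plot of normalised read counts by library shows how tightly the 3 libraries of a group lay together. The libraries of the groups did not overlap for 6 of the 8 genes in EPR against mock (57.8% of all genes), for 7 in EPRSTOPE against mock (56.5%) and for 7 in EPR against EPRSTOPE (43%). For a single gene, the smallest p that an exact two-sided permutation test of 3 against 3 libraries can give is 0.1, and every gene whose groups did not overlap reached it.

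**Figure D1:**
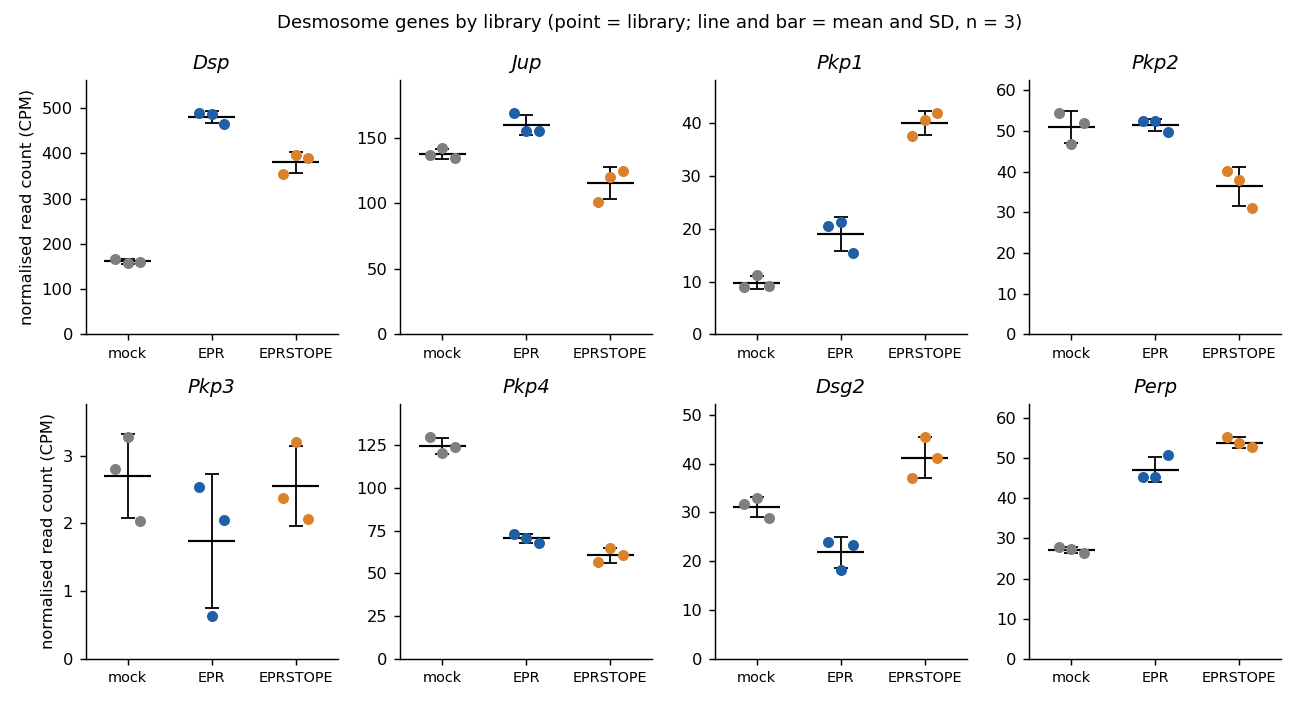
Normalised read counts (CPM, TMM, linear axes from 0) of the 8 tested desmosome genes in each of the 9 libraries, by group (points are libraries, the line and bar are the mean and SD of 3). *Dsp* lay between 157 and 168 CPM in mock, 465 and 489 in EPR and 354 and 397 in EPRSTOPE libraries, while the groups of *Pkp3* overlapped.

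Desmoplakin, encoded by *Dsp* (ENSMUSG00000054889.10, chromosome 13 from 38151294 to 38198577), is the plaque protein that reaches from the armadillo proteins to the keratin filaments. Its counts were 168, 157 and 159 CPM in the mock libraries, 489, 485 and 465 CPM in the EPR libraries and 354, 397 and 388 CPM in the EPRSTOPE libraries. The 3 groups were fully apart, with mock lowest and EPR highest. *Dsp* rose 2.97-fold with EPR (log2 fold change 1.57, SE 0.06, adjusted p = 1.09e-09) and 2.35-fold with EPRSTOPE (1.24, SE 0.06, adjusted p = 6.75e-09). The log2 fold change between EPR and EPRSTOPE was 0.34 (SE 0.06, adjusted p = 0.00087), which lies under the fold cut-off. With counts rebuilt from TPM it was also 0.34, but with an adjusted p of 0.27. Exons of *Dsp* share 499 bases with those of *Gm10129*, a gene on the opposite strand, whose group means were 0.131 (mock), 0.566 (EPR) and 0.315 CPM (EPRSTOPE).

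*Perp* (ENSMUSG00000019851.8, chromosome 10 from 18845020 to 18857073) encodes a tetraspan membrane protein of desmosomes that was first known as a target of p53. Its counts were 27.8, 27.3 and 26.4 CPM in mock, 45.4, 45.3 and 50.8 CPM in EPR and 55.2, 53.8 and 52.7 CPM in EPRSTOPE libraries. Mock was lowest here too, but the EPRSTOPE libraries were the highest. The increase was 1.74-fold with EPR (log2 fold change 0.80, SE 0.08, adjusted p = 3.15e-06) and 1.99-fold with EPRSTOPE (0.99, SE 0.08, adjusted p = 4.56e-07). The difference between EPR and EPRSTOPE was -0.19 (SE 0.07, adjusted p = 0.070) and was not called.

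*Pkp1* (ENSMUSG00000026413.12, chromosome 1 from 135871395 to 135919207) encodes plakophilin 1, the plakophilin best known from stratified epithelia such as the epidermis. It was at 9.01, 11.2 and 9.28 CPM in mock, at 20.6, 21.3 and 15.4 CPM in EPR and at 37.6, 40.6 and 42.0 CPM in EPRSTOPE libraries. The order was mock, EPR, EPRSTOPE with no overlap, and EPRSTOPE cells, which held less BC030870 RNA than EPR cells, had the most. The log2 fold change was 0.95 (SE 0.14, adjusted p = 0.00013) in EPR and 2.02 (SE 0.14, adjusted p = 1.71e-07) in EPRSTOPE against mock cells. EPR lay below EPRSTOPE cells by -1.07 (SE 0.13, adjusted p = 6.60e-05).

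*Pkp2* (ENSMUSG00000041957.15, chromosome 16 from 16213318 to 16272712) encodes plakophilin 2, the plakophilin of simple epithelia and heart. Its counts were 54.4, 46.6 and 51.9 CPM in mock, 52.4, 52.3 and 49.7 CPM in EPR and 40.2, 37.9 and 31.1 CPM in EPRSTOPE libraries. Mock and EPR libraries overlapped, and all EPRSTOPE libraries lay below both. The log2 fold change was 0.01 (SE 0.10, adjusted p = 0.92) in EPR against mock and -0.49 (SE 0.10, adjusted p = 0.0014) in EPRSTOPE against mock, the latter just inside the fold cut-off. In EPR against EPRSTOPE cells it was 0.50 (SE 0.10, adjusted p = 0.0022), just past it. That call was lost without EPR library 206 (0.49), EPR library 207 (0.4965) or EPRSTOPE library 211 (0.40), and with counts rebuilt from TPM (0.48, adjusted p = 0.097). The EPRSTOPE difference from mock was called under 6 of 17 alternatives, among them without mock library 204 (-0.56), EPRSTOPE library 209 (-0.56) or 210 (-0.52), and was -0.21 (adjusted p = 0.40) with counts rebuilt from TPM.

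*Pkp3* (ENSMUSG00000054065.12, chromosome 7 from 141078218 to 141090510), the plakophilin found in nearly all epithelia, was the lowest of the tested genes. It held 18, 31 and 25 estimated counts in mock, 29, 5 and 22 in EPR and 14, 30 and 18 in EPRSTOPE libraries. The groups overlapped in all 3 comparisons, with log2 fold changes of -0.58 (SE 0.43), -0.06 (SE 0.43) and -0.52 (SE 0.44) in the order of comparisons given above. With these standard errors a change of the size seen for *Perp* was not detectable at this depth.

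Plakoglobin, encoded by *Jup* (ENSMUSG00000001552.14, chromosome 11 from 100368958 to 100397763), is shared by desmosomes and adherens junctions and is a close relative of β-catenin. It was at 137, 142 and 135 CPM in mock, at 169, 156 and 155.5 CPM in EPR and at 101, 120.1 and 124.5 CPM in EPRSTOPE libraries. The groups did not overlap, with EPR above mock and EPRSTOPE below it. Neither difference from mock was called (log2 fold change 0.22, SE 0.08, adjusted p = 0.035 in EPR; -0.26, SE 0.08, adjusted p = 0.016 in EPRSTOPE). The difference between EPR and EPRSTOPE was 0.47 (SE 0.08, adjusted p = 0.00066), under the fold cut-off. It passed the cut-off under 4 of 17 alternatives. These were leaving out EPR library 208 (0.50) or EPRSTOPE library 211 (0.53), requiring 10 counts in every library (0.50) and counting protein-coding transcripts only (0.55). With counts rebuilt from TPM the difference was 0.24 (adjusted p = 0.50).

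Desmoglein 2, encoded by *Dsg2* (ENSMUSG00000044393.15, chromosome 18 from 20558074 to 20604521), is the desmoglein of simple epithelia and was the only desmosomal cadherin of the set that was detected. It was at 31.7, 32.9 and 28.9 CPM in mock, at 24.0, 18.2 and 23.3 CPM in EPR and at 37.1, 45.4 and 41.2 CPM in EPRSTOPE libraries. The groups were apart, with EPR lowest and EPRSTOPE highest. EPR cells lay below EPRSTOPE cells by a log2 fold change of -0.91 (SE 0.12, adjusted p = 0.00011). The decrease in EPR against mock was at the edge of the fold cut-off (-0.505, SE 0.118, adjusted p = 0.0037), and the log2 fold change in EPRSTOPE against mock was 0.41 (SE 0.12, adjusted p = 0.012). The call in EPR against mock was lost under 9 of 17 alternatives, with DESeq2 (-0.49), limma-voom (-0.49), RLE factors (-0.497), at least 10 counts in every library (-0.48) and only the 2 groups compared (-0.49), and without mock library 203 (-0.50), mock library 204 (-0.47), EPR library 207 (-0.39) or EPRSTOPE library 209 (-0.49). Over 17 alternatives this value ran from -0.93 to -0.39, with adjusted p from 0.00011 to 0.016, and the lowest came with counts rebuilt from TPM. By edgeR, the *Dsg2* transcript of 5766 bases gave -0.32 (SE 0.17, adjusted p = 0.38) in EPR against mock. The transcript of 953 bases gave -1.76 (SE 0.54, adjusted p = 0.10), and neither was called.

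*Dsc2* (chromosome 18 from 20030633 to 20059554) and *Dsc3* (chromosome 18 from 19960930 to 20002351) encode desmocollins, the usual partners of the desmogleins. A count of 0 allows up to 0.111, 0.0984 and 0.120 CPM over the mock, EPR and EPRSTOPE groups at a floor of 3 counts over the group, which covers counting error only. *Dsc1*, the third desmocollin, had an estimated count of 1 in mock cells, 1 with EPR and 0 with EPRSTOPE. No desmocollin was therefore measurable at this depth in cells that held *Dsg2* at 18.2 CPM or more.

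**Figure D2:**
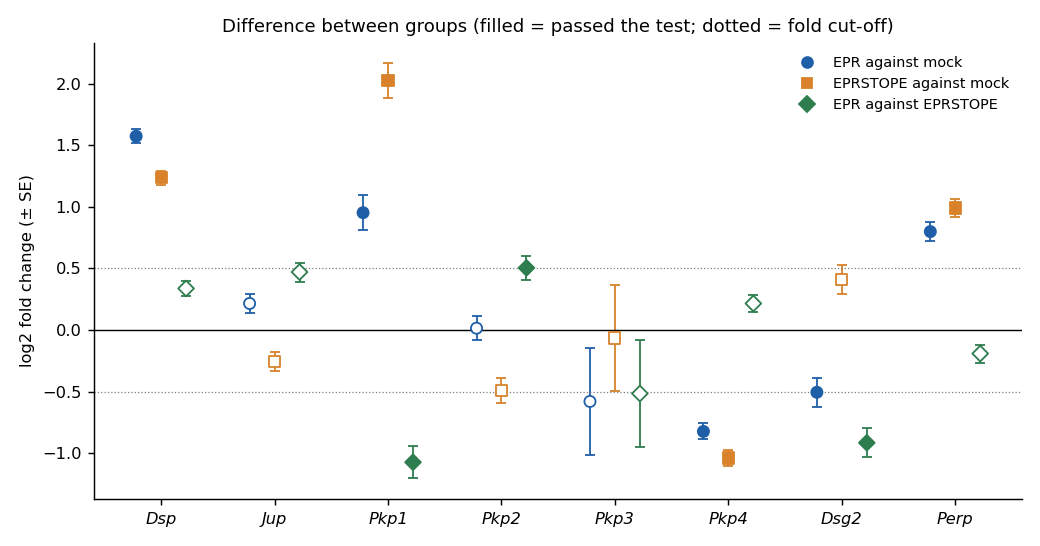
Log2 fold change with its standard error (vertical axis) for the 8 tested desmosome genes in EPR against mock (circles), EPRSTOPE against mock (squares) and EPR against EPRSTOPE (diamonds). Filled symbols were called and the dotted lines mark the cut-off of 0.5, so that *Dsp* and *Perp* stand above it in both comparisons with mock, *Pkp1* has its highest value with EPRSTOPE (2.02) and *Pkp4* stands below it (-0.82 and -1.04).

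*Pkp4* (ENSMUSG00000026991.20, chromosome 2 from 59160850 to 59355208) encodes p0071, a plakophilin relative found at both desmosomes and adherens junctions. Its gene counts were 130, 121 and 124 CPM in mock, 73.3, 70.5 and 67.7 CPM in EPR and 56.4, 64.8 and 60.5 CPM in EPRSTOPE libraries. All mock libraries lay far above the others. The gene count fell to 0.57-fold of mock with EPR (log2 fold change -0.82, SE 0.07, adjusted p = 7.28e-07) and to 0.49-fold with EPRSTOPE (-1.04, SE 0.07, adjusted p = 9.64e-08), and EPR against EPRSTOPE gave 0.22 (SE 0.07, adjusted p = 0.030).

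By the estimated counts, the difference lay on transcripts of *Pkp4* that are not annotated as protein-coding, as the plot of counts by transcript class shows. Of its 14 transcripts, 5 are protein-coding. The protein-coding ones held 43.5 ± 13.8 CPM before TMM scaling (SD, n = 3) in mock cells, 45.3 ± 11.1 with EPR and 37.3 ± 11.4 with EPRSTOPE. The others held 86.9 ± 21.2 in mock cells, 24.3 ± 11.4 with EPR and 20.9 ± 9.5 with EPRSTOPE, and the lowest mock library (72.5) lay above the highest of the other groups (33.4). Their share of the gene was 66.2 ± 11.96% in mock cells, 34.9 ± 16.1% with EPR and 36.2 ± 16.8% with EPRSTOPE. When only protein-coding transcripts were counted, the log2 fold change of *Pkp4* was 0.08 in EPR (adjusted p = 0.82) and -0.19 in EPRSTOPE (adjusted p = 0.58), and neither call held. When only the others were counted, it was -1.63 (SE 0.39, adjusted p = 0.049) and -1.74 (SE 0.40, adjusted p = 0.039), which did not pass 0.01 either, where 1.51% of genes so counted were called in each comparison. Of 5 desmosome genes counted on such transcripts, edgeR called 0 in either comparison with mock (1 in each at an unadjusted p under 0.05, *Pkp4*) and 0 in EPR against EPRSTOPE (0.0589% of genes, 0 at an unadjusted p under 0.05), and limma-voom called 0 in all of them.

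**Figure D3:**
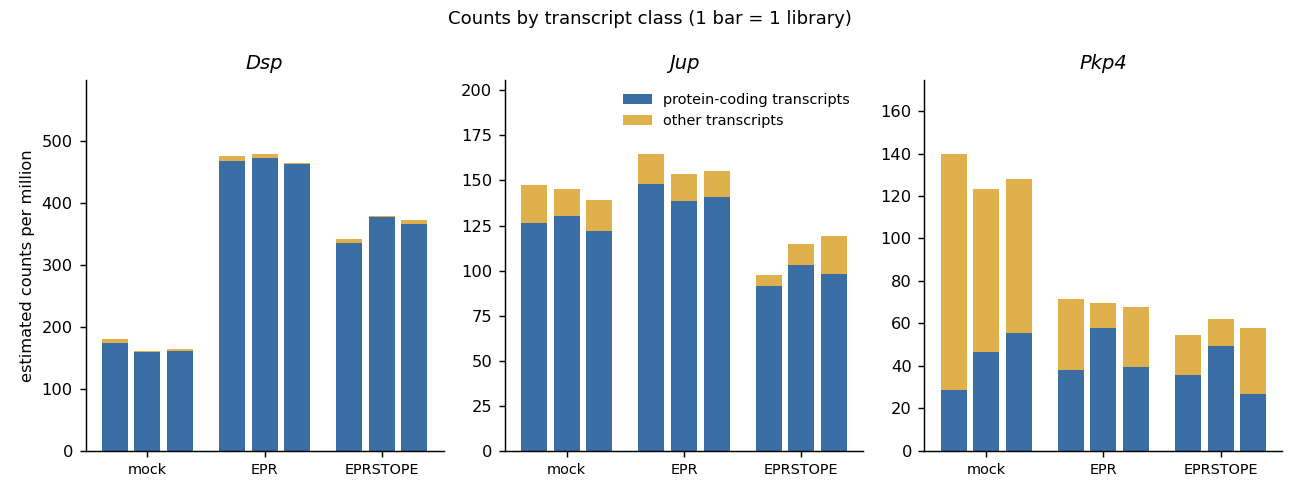
Estimated counts as CPM before TMM scaling (linear axis from 0) on protein-coding and other transcripts of *Dsp*, *Jup* and *Pkp4*, with 1 stacked bar for each library. Other transcripts took 1.21 to 2.21% of *Dsp* and 9.76 to 12.4% of *Jup* on average over the groups, but 66.2% of *Pkp4* in mock and 34.9 and 36.2% in EPR and EPRSTOPE cells.

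In mock libraries, the largest counts outside the protein-coding transcripts went to a transcript of 2344 bases annotated as a target of nonsense-mediated decay and to a processed transcript of 2505 bases. The start of the latter lies 161608 bases from that of the protein-coding transcript of 4378 bases. The decay target of 2344 bases was given 222, 240 and 296 estimated counts in the mock libraries, 82, 8.66 and 49.7 in the EPR libraries and 35.5, 49.5 and 75.6 in the EPRSTOPE libraries. The processed transcript of 2505 bases was given 285, 255 and 267 counts in mock, 47.6, 7.12e-06 and 78.8 in EPR and 23.4, 7.03e-06 and 96.1 in EPRSTOPE libraries. All mock libraries were above the others for both. Another one, a nonsense-mediated decay target of 4122 bases, did not follow this order, with 19.9, 68.3 and 83.9 counts in mock, 197, 19.1 and 91.6 in EPR and 41.5, 32.1 and 28.5 in EPRSTOPE libraries, and had the largest mean share of these transcripts in EPR cells (13.2 ± 10.0% of the gene). However, all bases of the decay target of 2344 bases and 94.85% of the processed transcript are also in the protein-coding *Pkp4* transcript of 4378 bases, so reads were split between them by estimation. By edgeR, 0 of the 8 tested *Pkp4* transcripts were called in either comparison with mock, with 1 (EPR) and 2 (EPRSTOPE) at an unadjusted p under 0.05. DESeq2 called 1 lower in each comparison, and limma-voom called 1 lower in EPR and 0 in EPRSTOPE.

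Among all 53 transcripts of the 10 genes, 25 were tested with 45412 transcripts in all. In EPR against mock, edgeR called 2, the *Dsp* transcript of 9592 bases (log2 fold change 1.69, SE 0.09) and the single transcript of *Perp* (0.85, SE 0.09), where 4.07% of all transcripts were called. In EPRSTOPE against mock, edgeR called 3, the same 2 (1.303, SE 0.09 and 1.02, SE 0.09) and the *Pkp1* transcript of 4669 bases (2.17, SE 0.23), against 4.64% of all transcripts. DESeq2 called 4 higher and 1 lower in each comparison with mock, among them 2 of 3 tested *Dsp* transcripts and the *Pkp1* transcript. With limma-voom, 2 were higher and 1 lower in EPR, and 3 higher and 0 lower in EPRSTOPE against mock. In EPR against EPRSTOPE, edgeR called 0 of the 25 (0.854% of all transcripts), with 6 at an unadjusted p under 0.05, limma-voom called 0 and DESeq2 called 3. *Dsp* also has a protein-coding transcript of 7761 bases, all of them shared with the one of 9592 bases, and its log2 fold change in EPR against mock was 1.45 (SE 0.29, adjusted p = 0.018). The difference between these forms was not tested.

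Levels of different genes were compared per length, as TPM (counts scaled for transcript length and library depth) summed over protein-coding transcripts. In mock cells the order was *Jup* (33.9 ± 4.5 TPM, SD, n = 3), *Pkp2* (14.8 ± 0.2), *Dsp* (12.9 ± 1.2), *Perp* (12.8 ± 1.3), *Dsg2* (9.59 ± 0.92), *Pkp4* (7.70 ± 2.8), *Pkp1* (1.70 ± 0.37) and *Pkp3* (1.153 ± 1.2). Neighbours whose libraries overlapped were *Dsp* and *Perp*, *Dsg2* and *Pkp4*, and *Pkp1* and *Pkp3*. In EPR cells *Dsp* (42.2 ± 3.4 TPM) and *Jup* (41.8 ± 3.4) overlapped at the top, followed by *Perp* (21.95 ± 0.7), *Pkp2* (15.6 ± 1.3), *Pkp4* (9.03 ± 2.9), *Dsg2* (4.39 ± 0.77), *Pkp1* (3.45 ± 0.77) and *Pkp3* (1.28 ± 0.22), with *Dsg2* and *Pkp1* overlapping. In EPRSTOPE cells *Dsp* (34.0 ± 6.1 TPM), *Jup* (30.3 ± 5.7) and *Perp* (25.9 ± 4.1) overlapped from each to the next, then came *Pkp2* (11.4 ± 2.9), *Dsg2* (10.0 ± 2.5), *Pkp4* (7.93 ± 3.6) and *Pkp1* (7.35 ± 1.1), again each overlapping the next, and *Pkp3* (0.98 ± 0.44) was last. By coding means *Dsp* thus stood behind *Jup* and *Pkp2* in mock and first in both other groups, where it overlapped *Jup*. Over all transcripts, *Pkp4* (70.3 ± 7.5 TPM) stood first in mock cells, and *Jup* stood above *Dsp* in EPR (64.6 against 56.9 TPM) and EPRSTOPE cells (55.6 against 45.6 TPM), again with overlap.

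**Figure D4:**
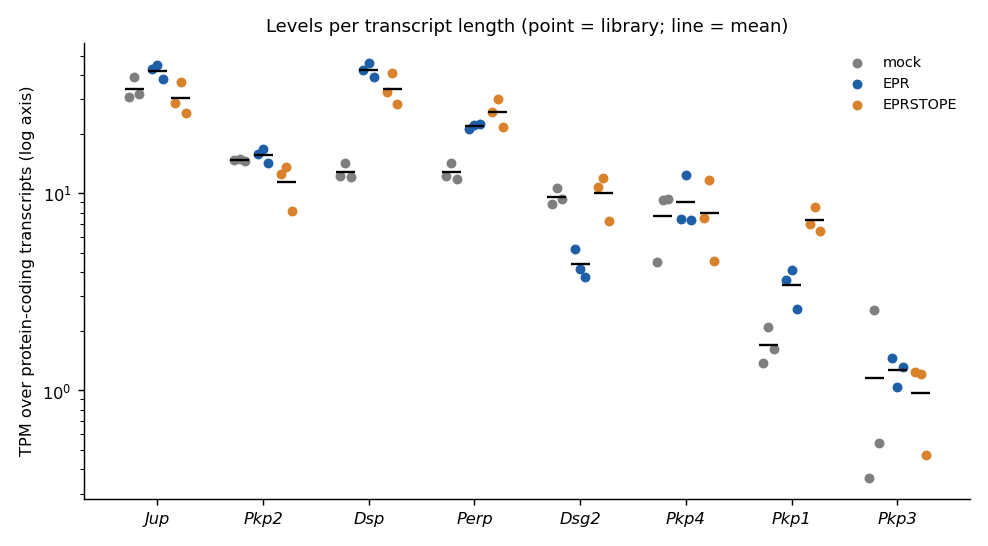
TPM over protein-coding transcripts (log axis) of the 8 detected desmosome genes, ordered by their mock mean, with 1 point for each library and a line at the mean of 3. *Dsp* lies near 12.9 TPM in mock and at 42.2 and 34.0 TPM in EPR and EPRSTOPE cells, level with *Jup*.

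The plakophilins differed in how they shared their summed coding TPM. *Pkp1* took 6.68 ± 0.55% (SD, n = 3) in mock cells, 11.7 ± 1.3% with EPR and 27.4 ± 4.8% with EPRSTOPE, with no overlap between the groups. *Pkp2* took 59.4 ± 9.7%, 53.5 ± 4.0% and 41.5 ± 2.8%, and all EPRSTOPE libraries lay below the others. That order depended on the transcripts counted, since over all transcripts *Pkp2* took 16.5 ± 1.3%, 32.3 ± 1.7% and 24.9 ± 7.6%. In the coding TPM, *Pkp4* took 29.7 ± 7.5%, 30.3 ± 5.1% and 27.7 ± 5.3%, and *Pkp3* between 3.42 and 4.47% on average. Over all transcripts *Pkp4* took 77.9 ± 2.7%, 55.6 ± 2.0% and 53.7 ± 12.7%. The coding TPM of *Dsp* was 51.3 ± 6.1% of the plakophilin total in mock cells, 145 ± 10% with EPR and 126 ± 17% with EPRSTOPE. Over all transcripts it was 25.8 ± 4.6%, 118 ± 22% and 98.7 ± 9.0%.

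Genes around the desmosome were counted in lists, of which up to 4 genes are named, those with the largest and the smallest size of log2 fold change in EPR against mock. Among the transcription factors, *Snai1* and *Zeb2* are named as well. The counts of every list stand beside the shares over all genes. These were 28.1% called in EPR against mock, 28% in EPRSTOPE against mock and 13.2% in EPR against EPRSTOPE. Keratin filaments are the anchor of desmoplakin, and 6 of the 8 listed keratins were tested. Against mock, 5 of these were higher and 1 lower with EPR and 3 were higher with EPRSTOPE. Their median log2 fold change was 1.31 and 1.40, against -0.01 and -0.04 over all genes. *Krt6a* was listed at 0 in all mock libraries, and was at least 93.9-fold higher in EPR (10.4 ± 1.1 CPM) and at least 67.2-fold higher in EPRSTOPE cells (7.43 ± 0.73 CPM). *Krt14*, a basal keratin, was at 0.90 ± 0.22 CPM in mock and listed at 0 in all EPR libraries, at least 9.11-fold lower, with all 3 bounds taken at a floor of 3 counts over the group. With both genes at these bounds the medians do not change. *Krt18*, the simple epithelial partner of *Krt8*, rose from a mock level of 1526 ± 101 CPM to 3746 ± 291 with EPR and 4137 ± 130 with EPRSTOPE, and *Krt19* from 279.8 ± 16.6 to 584 ± 12 CPM in EPR (log2 fold change 1.06, SE 0.06), with 385 ± 17 CPM in EPRSTOPE cells (0.46, SE 0.06), under the fold cut-off. In EPR against EPRSTOPE, 2 of the 6 keratins were higher and 1 lower, the latter being *Krt14*, which would not have passed the filter without its EPRSTOPE libraries.

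The cytolinkers and adaptors had 5 of 6 tested. *Evpl* and *Kazn* passed the filter on low counts through the EPR libraries alone, so their direction was set by the filter. Against mock, 1 of the other 3 was higher (*Ppl*, encoding periplakin) and 1 lower with EPR, and with EPRSTOPE 0 of 5 were called by edgeR (3 at an unadjusted p under 0.05), by DESeq2 or by limma-voom. Of all genes, edgeR called 28.1% and 28% in these comparisons, and 13.2% in EPR against EPRSTOPE. *Evpl*, encoding envoplakin, had 0.57 ± 0.36 CPM in mock, 3.002 ± 0.28 with EPR and 0.49 ± 0.18 with EPRSTOPE. *Kazn*, encoding kazrin, a partner of periplakin, went likewise from 0.52 ± 0.29 to 2.01 ± 0.72 CPM in EPR and was at 0.26 ± 0.07 in EPRSTOPE cells. *Pnn*, encoding pinin, fell from 128 ± 10 CPM to 85.0 ± 3.3 in EPR cells (log2 fold change -0.59, SE 0.07) and was at 97.2 ± 1.3 in EPRSTOPE cells (-0.39, SE 0.07), and *Tchp*, encoding trichoplein, gave -0.06 (SE 0.15) in EPR against mock. In EPR against EPRSTOPE, edgeR, DESeq2 and limma-voom called 0 of the 3 others, each of which had an unadjusted p under 0.05 in edgeR.

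The armadillo relatives of the plakophilins and plakoglobin had 3 of 4 tested, of which 2 were higher in both comparisons with mock. Of all genes, 15.2% were higher with EPR and 15.6% with EPRSTOPE. *Ctnnb1*, encoding β-catenin, rose from 745 ± 18 CPM to 2356 ± 41 in EPR (log2 fold change 1.66, SE 0.04) and 1758 ± 37 in EPRSTOPE cells (1.24, SE 0.04). *Ctnnd1*, encoding p120 catenin, gave 0.77 (SE 0.06) and 0.51 (SE 0.06), and *Arvcf* 0.11 (SE 0.20) and -0.20 (SE 0.20). Of the 7 enzymes and calcium pumps that act on desmosome turnover, all tested, 4 were higher in EPR and 4 in EPRSTOPE cells than in mock, and in EPR against EPRSTOPE edgeR called 0 (2 at an unadjusted p under 0.05), as did DESeq2 and limma-voom. *Egfr* (0.81, SE 0.06 with EPR, 0.91, SE 0.06 with EPRSTOPE) and *Adam10*, a protease that cleaves *Dsg2* protein (0.77, SE 0.06 and 0.66, SE 0.06), had the largest changes with EPR. *Src* (0.11, SE 0.07 and 0.09, SE 0.07) was not called in either, and *Atp2c1*, a Golgi calcium pump, gave -0.26 (SE 0.10) and 0.06 (SE 0.10).

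Of 14 transcription factors known to act on desmosome genes, 8 were tested. Against mock, EPR cells had 1 higher and 2 lower, EPRSTOPE cells had 3 higher and 1 lower, and in EPR against EPRSTOPE 1 was lower. Of all genes, 28.1%, 28% and 13.2% were called in these comparisons, so the counts lie near or little above those shares. *Snai2*, encoding the repressor Slug, fell from 6.83 ± 0.67 CPM to 2.44 ± 0.71 in EPR (log2 fold change -1.50, SE 0.26) and 3.352 ± 0.44 in EPRSTOPE cells (-1.03, SE 0.26). *Snai1*, encoding another Snail repressor, went the other way, from 2.10 ± 0.55 CPM in mock to 3.50 ± 0.58 with EPR and 6.14 ± 0.78 with EPRSTOPE. Its log2 fold change was 0.76 (SE 0.28, not called) with EPR and 1.59 (SE 0.27, called) with EPRSTOPE. *Zeb2* gave -0.78 (SE 0.10, called) and -0.39 (SE 0.10, not called). *Grhl1*, a grainyhead-like activator of desmosomal cadherin genes in epidermis, had 5.45 ± 1.1 CPM in mock, 4.82 ± 0.56 with EPR and 10.7 ± 0.6 with EPRSTOPE, and rose in EPRSTOPE against mock (0.96, SE 0.19). *Zeb1* gave -0.13 (SE 0.08) and -0.11 (SE 0.08). *Trp63*, *Ovol2* and *Twist1* were listed at 0 in all libraries. Of the other desmosomal cadherins and corneodesmosomal genes, 1 of 7 was tested, *Cdsn*, encoding corneodesmosin, which had 2.83 ± 0.52 CPM in mock, 3.61 ± 0.62 with EPR and 6.25 ± 1.1 with EPRSTOPE, and rose in EPRSTOPE cells (1.149, SE 0.26).

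**Figure D5:**
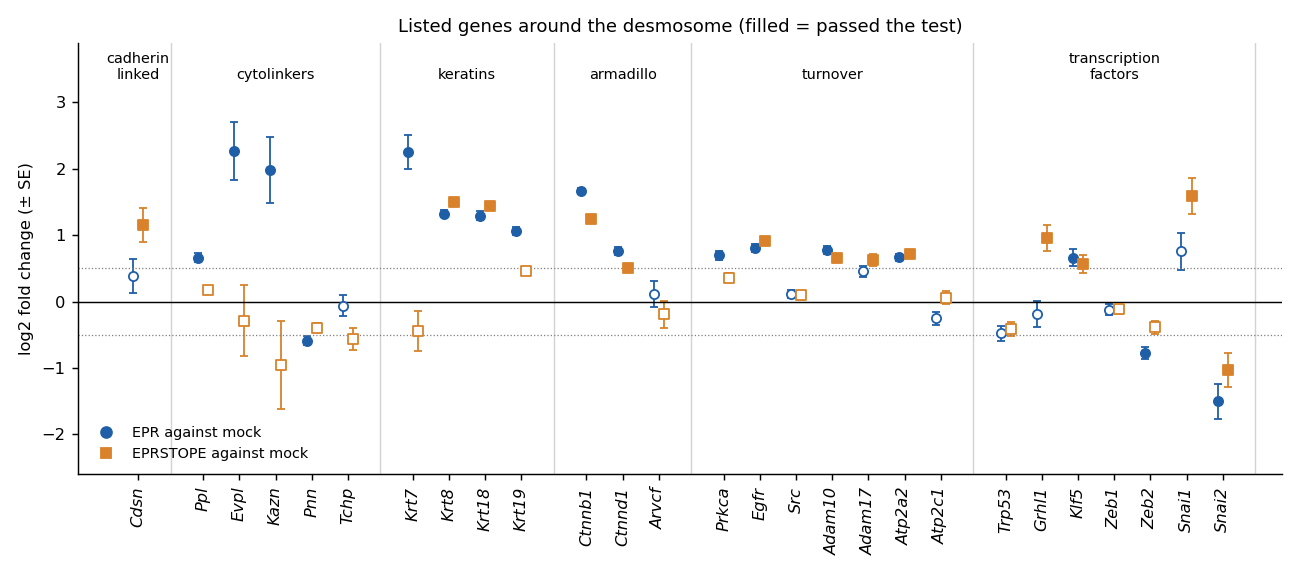
Log2 fold change with its standard error (vertical axis) of the tested listed genes around the desmosome in EPR against mock (circles) and EPRSTOPE against mock (squares), filled where called. Genes with a group at 0 in all libraries and 1 transcription factor are left out. *Krt7*, *Krt19* and *Ppl* are among those filled for EPR alone. So are *Evpl* and *Kazn*, which passed the filter on low counts through the EPR libraries alone, so that their direction was set by the filter.

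For each tested desmosome gene, the 3 genes whose counts over the 9 libraries followed it most closely were sought among the 9322 genes that averaged 10 CPM or more. Likeness was the root mean square difference of log2(CPM + 1) after each gene's mean was subtracted. *Dsp* was followed by *Gm42959* (0.056), *Ptprm* (0.073) and *Abca3* (0.073), *Perp* by *Slc33a1* (0.045), *Tsc22d1* (0.053) and *Prkaa1* (0.065), and *Jup* by *Ostf1* (0.048), *Ehd1* (0.068) and *Coro1b* (0.070), all 3 of which lie on chromosome 19. *Pkp1* was followed by *Anxa8* (0.12), *Pip5k1c* (0.13) and *Nupr1* (0.14), *Pkp2* by *Chd2* (0.063), *Ubxn1* (0.078) and *Skap2* (0.096), *Pkp4* by *Gabpb2* (0.071) and *Fanca* (0.073), with the third not reported here, and *Dsg2* by *Plxna2* (0.087), *Zfp12* (0.12) and *Prl2c2* (0.12). *Pkp3* had no gene nearer than *Ccdc85c* (0.21). Desmosome genes were not among the 3 nearest of each other. Genes within 1 Mb were also counted. In EPR against mock, edgeR called 0 of 10 tested neighbours of *Dsp* and 0 of 4 of *Dsg2* (4 and 0 at an unadjusted p under 0.05, and 0 called by DESeq2 or limma-voom), 3 of 23 of *Pkp2*, 13 of 51 of *Pkp3*, 15 of 40 of *Jup*, 11 of 27 of *Pkp1*, 4 of 9 of *Perp* and 4 of 7 of *Pkp4*, beside the 28.1% of all genes. Differences between these neighbourhoods were not tested.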

How the data were processed

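Stranded total RNA libraries (TruSeq) of mock, EPR and EPRSTOPE NMuMG cells were sequenced as paired 75-base reads per the labels. Per the labels, reads were converted with bcl2fastq 2.0 and quantified with kallisto 0.43.1 on GRCm38.p5. The authors used the Gencode vM15 transcripts and deposited, for each transcript and library, an estimated count without normalization. The authors also deposited a TPM value, in which counts are scaled for transcript length and depth. Read pairs that fit several transcripts are divided by estimation, so counts of overlapping transcripts carry more error than the counts of their gene.

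The estimated counts were summed per gene symbol and rounded, since the test needs whole counts. A gene entered the test if 3 or more libraries reached 1 CPM for it. Genes were tested in edgeR 4.0.16 (R 4.3.3, glmQLFit and glmQLFTest) with TMM normalization, a factor of 3 levels fitted to all 9 libraries and Benjamini-Hochberg adjustment over all genes tested. Standard errors come from the F statistic. Transcripts were tested in the same way. Groups came from the genotype labels, and the library numbers in the titles serve as replicate names. The desmosome genes, the gene lists and the tests were chosen with earlier results of these data known. Positions come from Gencode M21 on GRCm38. Alternatives were DESeq2 1.42.0, limma 3.58.1 with voom, other filters, factors, thresholds and sample sets, and, chosen after the data were seen, counts of protein-coding or of other transcripts only. Libraries of a group differed by more than sampling noise (chi-square per degree of freedom of 4.64 or more), so each was counted once. On simulated counts of 15370 genes for EPR against mock, edgeR recovered 195 of 200 genes changed by a log2 fold of 1.5 with 0 false calls. Every simulated gene had the same spread and all changes had this size, so the recovery does not cover changes near the fold cut-off. Depth was 5972457 to 11876435 estimated counts per library, and intervals and floors cover counting error only. The other steps ran in Python 3.11.15 (numpy 2.4.6, pandas 2.3.3, matplotlib 3.10.9, scipy 1.17.1). For the lists, the 2 largest and the 2 smallest changes in EPR against mock are named, and *Snai1* and *Zeb2* are named beside *Snai2* and *Zeb1*. A gene among the listed transcription factors and a gene among those most like *Pkp4* enter the counts but are not reported here.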

Additional observations from a re-analysis of the deposited data

Results flagged for a closer look

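EPR cells overexpress BC030870 RNA, and EPRSTOPE cells the same RNA with a stop codon in the reading frame of the peptide. For 3 desmosome genes the difference between these cells was itself past the test. *Pkp1* was lower in EPR than in EPRSTOPE cells (log2 fold change -1.07), although it was above mock in both. *Dsg2* was lower in EPR than in EPRSTOPE cells (-0.91), with all EPR libraries below and all EPRSTOPE libraries above the mock libraries. *Pkp2* was higher in EPR than in EPRSTOPE cells (0.50), at the edge of the fold cut-off. The mean level of BC030870 RNA in EPR cells was 5.87 times that in EPRSTOPE cells, and its part in these differences was not tested. The amount of this RNA and the stop codon cannot be told apart in this comparison.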

How the results depend on the processing

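No paired analysis was possible because the groups share no replicate numbers in the labels. Of 405 values of single genes under alternatives, 375 kept their direction and side of the threshold, 14 lost a call, 10 gained one and 6 changed sign. The 6 were uncalled values of *Pkp2* in EPR against mock (-0.054 without mock library 204 and 0.054 without 203, the range when 1 library is left out, and -0.018 with protein-coding transcripts only), of *Pkp3* in EPR against EPRSTOPE (0.040 with counts rebuilt from TPM) and in EPRSTOPE against mock (-0.28 to 0.099 with 1 library left out, above 0 without mock library 204 and, at 0.077, without EPRSTOPE library 211), and the called value of *Pkp4* in EPR against mock, which was 0.080 with protein-coding transcripts only. *Dsp*, *Perp* and *Pkp1* kept their calls against mock under all 17 alternatives run for each. Leaving out 1 library at a time gave 4 to 5 of 8 desmosome genes called in EPR against mock, 4 to 5 in EPRSTOPE against mock and 2 to 4 in EPR against EPRSTOPE. Over all genes the same fits called 3816 to 4328, 3817 to 4251 and 1664 to 2026, with 14942 to 15214 genes tested. At an adjusted p under 0.05 with no fold cut-off, 6 of 8 desmosome genes were called in EPR against mock, 7 in EPRSTOPE against mock and 6 between EPR and EPRSTOPE. Of all 15370 genes tested, 7478 were called in EPR against mock, 7442 in EPRSTOPE against mock and 4637 between EPR and EPRSTOPE. With a log2 fold change beyond 1, the desmosome genes called were 1 in EPR against mock, 3 in EPRSTOPE against mock and 1 between EPR and EPRSTOPE, with 2296, 2373 and 1001 over all genes. Counts rebuilt from TPM gave 940 genes called in EPR against EPRSTOPE in place of 2031. The cause was not tested. Depth limits *Pkp3*, with 5 to 31 counts per library, and the desmocollins, listed at 0.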
